A study of Drosophila melanogaster with 4 samples.

Results

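The data described here are the probes for immune peptides, recognition proteins and imaginal disc growth factors on a cDNA array of Drosophila melanogaster. Members were chosen by name alone, as every probe whose platform gene symbol starts with PGRP-, GNBP, Bom, Att, Cec, Drs, Dpt, Tep, Tot, Lys followed by a capital letter, or Idgf. The rule found 18 of the 13824 probes, for 17 of the 6863 genes named on the array. Of the 18, 7 held a value on all 4 arrays and were tested, and 11 held none on any array.

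The study compared heads of unmated adult males of the wild-type strain Oregon-R that had eaten either normal food or food with 16 mg/ml tetraethylammonium chloride (TEA), a blocker of potassium channels, for 7 days. Both groups were 3 to 4 days old when feeding began and were kept at 30 flies per vial, so strain, sex, age and the base food were shared. Each of the 4 arrays, 1 per biological replicate, set the RNA of a pool of TEA heads against that of a pool of control heads in the other dye, TEA carrying Cy5 in replicates 1 and 2 but Cy3 in replicates 3 and 4. A pool mixes many heads, so the spread between replicates is that between pools, and the number of arrays limits the precision.

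Flies defend themselves with secreted peptides and enzymes made largely by the fat body, a liver-like tissue that is also present in the head capsule. Peptidoglycan recognition proteins (PGRP) and GNBP proteins sense bacterial or fungal wall material, and the Toll and IMD pathways then switch on genes for antimicrobial peptides such as drosomycin (Drs), attacins, cecropins and diptericins, and for the short Bomanin (Bom) peptides. Turandot (Tot) genes encode humoral stress factors, Tep genes thioester-containing proteins that can tag microbes, and Lys genes lysozymes that are mostly digestive. Idgf genes encode secreted chitinase-like proteins that have lost the enzyme's activity and were first found as growth factors for imaginal disc cells.

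Values are log2 ratios of TEA over normal food, averaged over the 2 neighbouring spots of a probe, so 0 means equal signal in both pools. The labels do not state the direction of the deposited ratio. Cy5 over Cy3 is the likely one, since Cy5 is channel 1 on every array and the design text names its pixel regression as red over green. Replicates 3 and 4 were therefore sign-reversed, and each direction given here holds in that reading only. With pools of whole heads, a change in the number of cells of a type and a change in RNA per cell cannot be told apart.

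None of the 7 tested probes passed the threshold of a limma adjusted p under 0.05 (0 of 7), where 0.635% of all 3150 tested probes did. At an unadjusted limma p under 0.05 there were 2 of 7, Idgf6 and the probe shared by PGRP-SC1a and PGRP-SC1b, against 8.98% of all tested probes. The mean lay above 0 for 6 of the 7 probes, as it did for 55.8% of all tested probes. The median of the 7 means was 0.199, against 0.026 for all tested probes. By array the median of the 7 was 0.287, 0.176, 0.224 and 0.042 in replicates 1 to 4, and that of all tested probes was -0.088, -0.080, 0.241 and 0.055. The median of the members thus lay above that of all tested probes in replicates 1 and 2, and slightly below it in replicates 3 and 4. Single members departed from this in both directions.

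**Figure D1:**
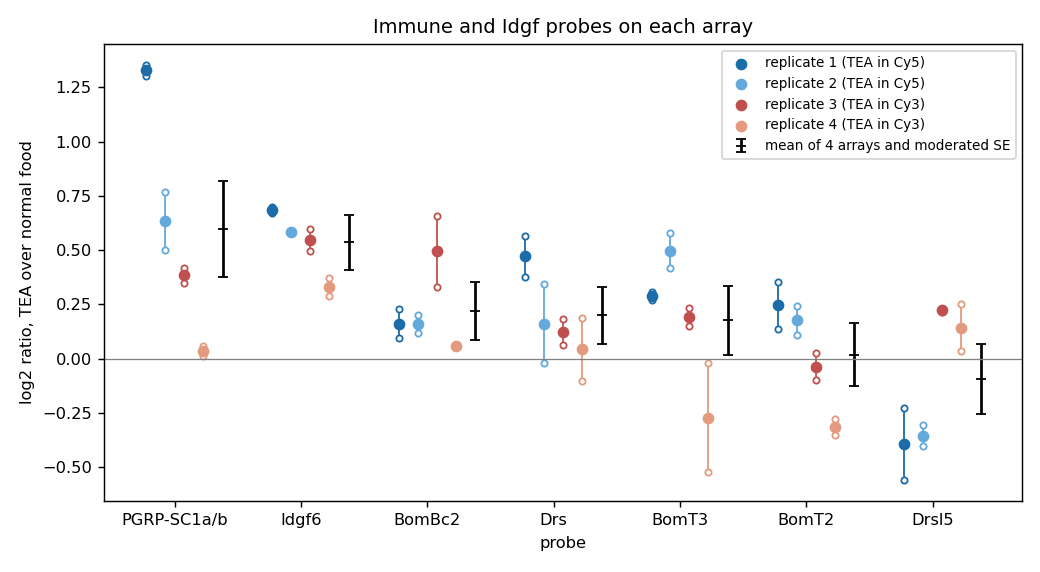
Log2 ratio of TEA over normal food (y axis) for the 7 measured probes (x axis), in order of their mean. Filled points are arrays, open points joined by a line are the 2 spots of that array, and black bars are the mean of 4 arrays with the moderated SE. Idgf6 is above 0 on every array at 0.33 to 0.69, and Drsl5 is negative with TEA in Cy5 and positive with TEA in Cy3.

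Among the recognition genes, 3 probes were on the list and 1 was measured. That probe is annotated to both PGRP-SC1a and PGRP-SC1b, near-identical secreted amidases that cut peptidoglycan and so dampen IMD signalling, and its signal cannot be assigned to either gene. In gene order the pair is separated by 1 protein-coding gene in the RefSeq table of the Release 6 assembly. Its log2 ratio was 1.33 in replicate 1, 0.63 in replicate 2, 0.38 in replicate 3 and 0.04 in replicate 4. All 4 arrays were above 0, and the values spread more widely than those of any other measured member. The mean was 0.60 ± 0.22 (SE, n = 4), a fold of 1.51, with a limma adjusted p of 0.520 and a 95% interval of 0.06 to 1.13 on the log2 scale. Unlike the adjusted p, this interval and those below are not adjusted for the number of probes tested. Without replicate 1 the mean was 0.35. The 2 spots of the probe lay within 0.27 of each other on every array, so the spread came from between arrays rather than from within them.

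The position before this probe in the table, annotated to CG4716, had almost the same profile. Its log2 ratio was 1.48, 0.49, 0.43 and 0.05 in replicates 1 to 4, with a mean of 0.61. How the positions were printed on the slide is not given in the sources used here, and the part of this neighbour in the PGRP-SC1a/b value was not tested. Over the 1339 pairs of neighbouring tested positions in the table, the Spearman correlation of the mean log2 ratios was 0.404. That is a description across probes, which share arrays and are not independent replicates.

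The other recognition probes gave no value on any array. They stand for PGRP-LB, an amidase that also limits IMD signalling, and PGRP-LE, a receptor that senses peptidoglycan inside cells and upstream of IMD. The probe for Tep4 was also empty, and no probe carried a GNBP symbol. An empty spot had failed a filter of the authors, on signal, saturation, flags, uniformity or the number of analysable replicates, so it does not show that the transcript is absent from the head.

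Among the antimicrobial and Bomanin peptides, 5 probes were measured: Drs, Drsl5, BomBc2, BomT2 and BomT3. Drs encodes drosomycin, an antifungal peptide and a standard readout of Toll signalling in the fat body. Its log2 ratio was 0.47 in replicate 1, 0.16 in replicate 2, 0.12 in replicate 3 and 0.04 in replicate 4. All 4 arrays were above 0, although 1 of the 2 spots was below 0 in replicate 2 (-0.02) and in replicate 4 (-0.10). The mean was 0.20 ± 0.13 (SE, n = 4), a fold of 1.15, with a limma adjusted p of 0.790 and a 95% interval of -0.12 to 0.52.

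The probe for Drsl5, a drosomycin-like gene of the same family and separated from Drs by 10 protein-coding genes, behaved differently by array. Its log2 ratio was -0.39 and -0.36 where TEA carried Cy5 (replicates 1 and 2) but 0.22 and 0.14 where it carried Cy3 (replicates 3 and 4). The sign was therefore split by dye orientation, as it was for 25.9% of all probes with 4 values. The mean was -0.10 ± 0.16 (SE, n = 4; limma adjusted p = 0.916). A dye term fitted to the deposited Cy5 over Cy3 ratios was -0.28 ± 0.09 (SE, n = 4; limma adjusted p = 0.294), which did not pass. For Drs minus Drsl5 the differences were 0.86, 0.52, -0.10 and -0.10 in replicates 1 to 4, with a mean of 0.29 ± 0.48 (SD, n = 4; exact two-sided sign-flip permutation p = 0.5). With 4 arrays this test cannot go below 0.125, so it could not have shown a difference between these related genes.

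Bomanins are short secreted peptides that Toll signalling induces and that flies need to resist Toll-sensitive infections. BomBc2 encodes a bicipital form, with a pair of Bomanin motifs, and had log2 ratios of 0.16, 0.16, 0.49 and 0.06 in replicates 1 to 4. Every array was above 0, and replicate 3 was the highest. The mean was 0.22 ± 0.13 (SE, n = 4), a fold of 1.16, with a limma adjusted p of 0.769 and a 95% interval of -0.10 to 0.54. A further BomBc2 probe, at spots 6129 and 6130, was empty on all arrays.

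BomT2 and BomT3 encode tailed forms, in which a Bomanin motif is followed by a longer C-terminal stretch. BomT3 had log2 ratios of 0.29, 0.50, 0.19 and -0.27 in replicates 1 to 4. It was above 0 on 3 arrays, and in replicate 4 its 2 spots differed by 0.50, the widest gap among the 28 spot pairs of these probes. The mean was 0.18 ± 0.16 (SE, n = 4; limma adjusted p = 0.839).

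BomT2, which lies 2 protein-coding genes from BomBc2 in the same gene cluster, had log2 ratios of 0.25, 0.18, -0.04 and -0.31 in replicates 1 to 4. The arrays with TEA in Cy5 were above 0 and those with TEA in Cy3 below it, so the sign was again split by dye. The mean was 0.02 ± 0.14 (SE, n = 4; limma adjusted p = 0.982), with a 95% interval of -0.33 to 0.37. Its dye term was 0.19 ± 0.10 (SE, n = 4; limma adjusted p = 0.374).

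The Bomanin probes were compared with each other within arrays. BomBc2 minus BomT2 was -0.08, -0.02, 0.53 and 0.37 in replicates 1 to 4 (exact two-sided sign-flip permutation p = 0.5, n = 4). BomBc2 minus BomT3 averaged 0.04 ± 0.33 (SD, n = 4; exact permutation p = 1.0). BomT3 lay above BomT2 on all 4 arrays, by 0.04 to 0.32 and 0.16 ± 0.14 on average (SD, n = 4; exact permutation p = 0.125). The same limit of 0.125 applies here, so none of these comparisons could pass 0.05.

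The positions beside the peptide probes were read in the same way. The position after BomT2, unnamed here, had 0.21, 0.15, -0.01 and -0.31 in replicates 1 to 4, close to BomT2 on every array, and the unnamed one before it had 0.07, 0.07, -0.29 and -0.87. The unnamed position after Drs had 0.35, 0.23, 0.01 and -0.06, so it followed Drs in sign on 3 of 4 arrays. The unnamed position before BomT3 had 0.03, -0.13, 0.53 and -0.05, and did not follow BomT3. CG3823, after Drsl5, had -0.11, 0.01 and 0.38 in replicates 1 to 3. For Idgf6 and BomBc2 both adjoining positions were empty, and the part of any neighbour in the values of the others was not tested.

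**Figure D2:**
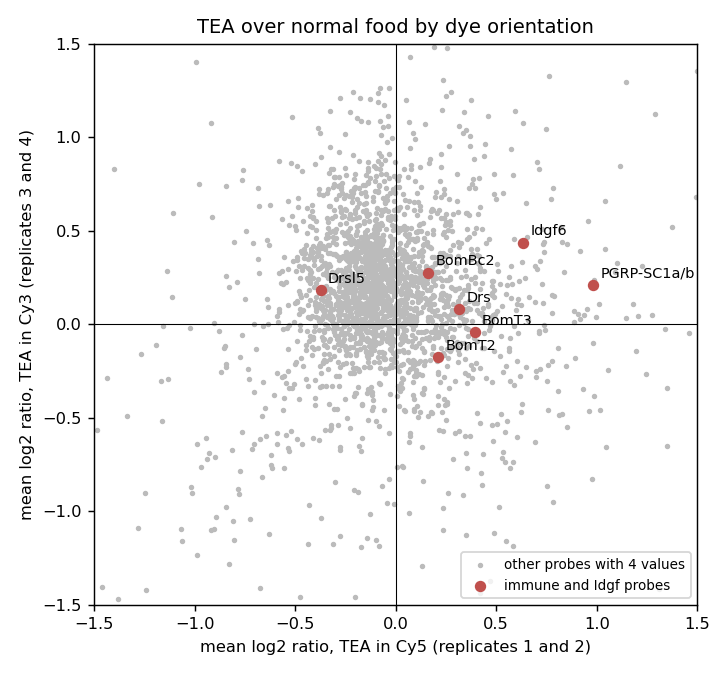
Mean log2 ratio of TEA over normal food with TEA in Cy5 (x axis, replicates 1 and 2) and with TEA in Cy3 (y axis, replicates 3 and 4) for the 2437 probes with 4 values, of which 54 lie outside the axes. Labelled points are the 7 immune and Idgf probes: Idgf6 is at 0.64 and 0.44, PGRP-SC1a/b at 0.98 and 0.21, and Drsl5 at -0.37 and 0.18.

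Of the Idgf genes, 5 probes for 4 genes were on the list and 1 was measured, for Idgf6. Its log2 ratio was 0.69 in replicate 1, 0.58 in replicate 2, 0.55 in replicate 3 and 0.33 in replicate 4. All 4 arrays were above 0, and the 8 single spots lay between 0.29 and 0.70. The mean was 0.54 ± 0.13 (SE, n = 4), a fold of 1.45, with a 95% interval of 0.23 to 0.84. The SD over arrays of 0.15 was the lowest of the 7 members, whose median was 0.252, against 0.311 for all probes with 4 values. The limma adjusted p was 0.228 (unadjusted p = 0.00492), so the probe did not pass, and it ranked 68 of 3150 by p. By size it ranked 121 from the top, behind PGRP-SC1a/b at 90.

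In the fit of 1379 gene means, which leaves out the PGRP-SC1a/b probe because it carries a pair of symbols, Idgf6 kept its mean and had a limma adjusted p of 0.113. The call depended on the fit at that level. With a dye term Idgf6 passed (limma adjusted p = 0.00122, n = 4), in a fit that called 6.74% of all genes against 0.87% without the term. That fit gave every member gene the same SE of 0.13, so its p did not use the gene's own spread over arrays. At the probe level the dye-term fit gave Idgf6 a limma adjusted p of 0.146. Among gene means Idgf6 also passed without replicate 3 (0.53, limma adjusted p = 0.0419, n = 3), where 2.54% of genes did. Without replicates 1, 2 and 4 in turn its adjusted p by limma was 0.232, 0.434 and 0.191. With the swapped arrays not turned its mean was 0.10 ± 0.25 (SE, n = 4, limma adjusted p = 0.857). That setting would apply if the deposited ratios of replicates 3 and 4 had been turned already, so the size of the Idgf6 value rests on this point. A ratio of Cy3 over Cy5 on every array would instead reverse its sign.

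A further Idgf6 probe, at spots 3417 and 3418, was empty on every array. The probes for Idgf3, Idgf4 and Idgf5 were empty as well, so whether Idgf6 differs from its relatives could not be compared. Idgf5 lies 2 protein-coding genes from BomT2 in gene order, which places it beside the Bomanin cluster. The remaining empty probes were those for TotB and TotF, of the Turandot stress genes, and for LysE. No probe carried an attacin, cecropin or diptericin symbol, and those genes were not analysed here. Of the 71 protein-coding genes whose names match the rule in the RefSeq table, 17 were named on the array.

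The share of members with a value on all 4 arrays was 38.9%, against 17.6% of all probes and 13.7% of probes with a symbol. No member was measured on only some arrays. The spots of a member agreed about as well as those of any probe, with a median absolute difference of 0.112 over 28 spot pairs, against 0.120 over 11675 pairs of all tested probes.

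The rank of each probe within its array does not depend on centring, and was lower in replicates 3 and 4 than in replicates 1 and 2 for all but Drsl5. Idgf6 stood at the 94th and 95th percentile of tested probes in replicates 1 and 2 and at the 79th and 78th in replicates 3 and 4. PGRP-SC1a/b went from the 98th and 96th to the 65th and 48th. Drs went from the 92nd and 80th to the 36th and 49th, and BomT3 from the 86th and 94th to the 45th and 16th. Although above 0, Drs thus lay below the middle of the table in replicates 3 and 4, as PGRP-SC1a/b did in replicate 4. BomBc2 kept to the 79th, 80th and 75th percentile in replicates 1 to 3 and stood at the 51st in replicate 4. Drsl5 stood at the 15th and 18th percentile with TEA in Cy5 and at the 48th and 61st with TEA in Cy3, the opposite order to BomT2, at the 84th and 81st and then the 22nd and 14th.

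Across the table, 9.89% of the 2437 probes with 4 values were above 0 on all 4 arrays. Of the 7 members 4 were, namely PGRP-SC1a/b, Drs, BomBc2 and Idgf6. With arrays centred on their medians it was 2 of 7, BomBc2 and Idgf6, against 10.6% of probes. With the swapped arrays not turned, 1 of 7 was above 0 throughout, BomT2, against 3.9% of probes, and 1 of 7 was below 0 throughout, Drsl5, against 22% of probes. A sign split by dye orientation was seen for 2 of the 7, Drsl5 and BomT2, and for 25.9% of all probes with 4 values. No dye term passed for any of the 7 or for any of the 3150 tested probes by limma (0 of 3150), and 16.1% of those 3150 had an unadjusted p under 0.05 for it.

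The genes upstream of these peptides were sparsely measured, and none of them passed in either direction at the gene level, where 0.87% of the 1379 genes did. Of 24 Toll pathway genes 2 were measured. SPE, the protease that activates the Toll ligand Spätzle, had log2 ratios of -0.38, 0.00, 1.06 and 0.28 in replicates 1 to 4 and a mean of 0.24 ± 0.20 (SE, n = 4; limma adjusted p = 0.861). Dif, the NF-κB factor that Toll sends to the nucleus in adults, had a mean of -0.05 ± 0.14 (SE, n = 4; limma adjusted p = 0.974). SPE was spread across 0 and its mean was carried by replicate 3, while Dif was below 0 only in replicates 3 and 4.

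Of 18 IMD pathway genes 2 were measured, both close to 0. Uev1A, a ubiquitin-conjugating enzyme variant used in IMD signalling, stood at -0.05 ± 0.14 (SE, n = 4), and casp, an inhibitor of the IMD factor Relish, at -0.05 ± 0.14 (SE, n = 4). Among 24 phagocytosis and scavenger receptor genes 2 were measured. The scavenger receptor gene emp had a mean of 0.14 ± 0.13 and was above 0 on all 4 arrays, at 0.06 to 0.23, and Ced-12, an engulfment adaptor, had 0.16 ± 0.16 (SE, n = 3). Neither passed, with a limma adjusted p of 0.862 for both.

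Of 18 genes of melanization and serpins only Ddc, dopa decarboxylase, was measured, at -0.04 ± 0.15 (SE, n = 4). From a list of 19 genes, the chitinases of glycoside hydrolase family 18 with genes of chitin synthesis, modification and binding, only the chitinase Cht6 was measured, at 0.20 ± 0.15 (SE, n = 4; limma adjusted p = 0.861), with replicate 3 at 0.60 and replicate 2 at -0.11. No gene was measured of the 12 JAK/STAT genes, the 17 other antimicrobial effectors or the 13 genes of gut and redox defence. The means of the genes in these lists ran from -0.05 to 0.24, all closer to 0 than that of Idgf6.

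**Figure D3:**
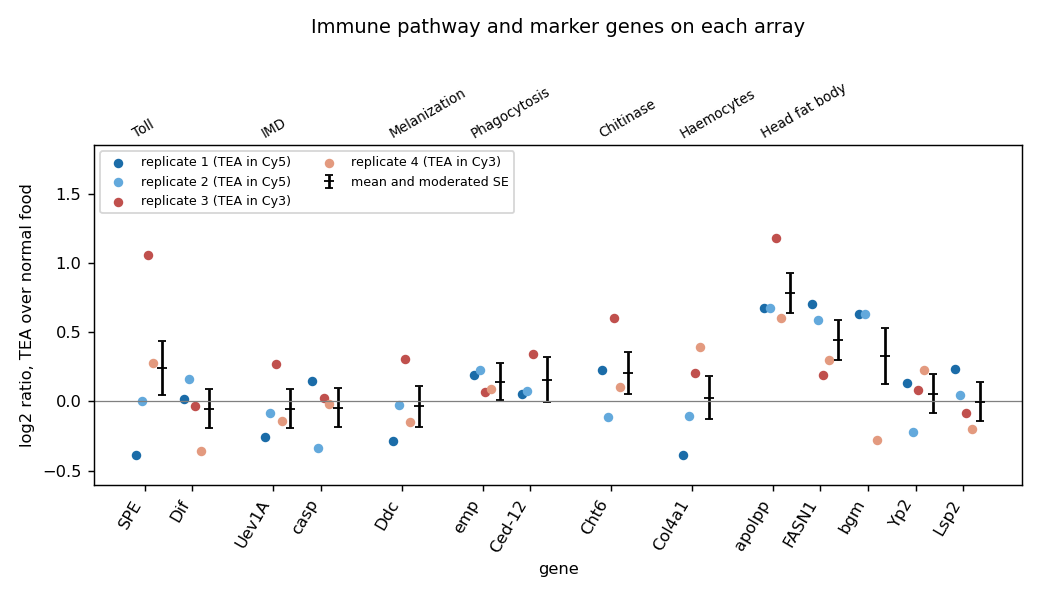
Log2 ratio of TEA over normal food (y axis) on each array for the measured genes of the immune pathway lists and of the haemocyte and head fat body marker lists (x axis), with the mean and moderated SE in black. The fat body gene apolpp is at 0.61 to 1.18 on all 4 arrays. The means of the pathway genes lie between -0.05 and 0.24, with single arrays further out, such as SPE at 1.06 in replicate 3.

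Since the fat body and blood cells make many of these proteins, their markers are given beside the members. Of 15 genes listed as head fat body markers 5 were measured, with a median of 0.33 against 0.02 for all genes. The mean was above 0 for 4 of the 5, as it was for 55.8% of all tested probes. Whether each listed gene marks the fat body in heads of males was not tested. One passed: apolpp, which encodes the apolipoprotein precursor of haemolymph lipoprotein, rose with 0.67, 0.67, 1.18 and 0.61 in replicates 1 to 4 (0.78 ± 0.15, SE, n = 4; limma adjusted p = 0.0222). FASN1, a fatty acid synthase, had a mean of 0.45 ± 0.14 (SE, n = 4; limma adjusted p = 0.280), and bgm, a gene of very long-chain fatty acid metabolism, had 0.33 ± 0.20 (SE, n = 3; limma adjusted p = 0.773). The lowest of the 5 was the serum protein gene Lsp2, at -0.00 ± 0.14, which is named to give the range. By array the median of the fat body markers was 0.63, 0.59, 0.14 and 0.23 in replicates 1 to 4. Replicates 1 and 2 were the higher ones, as for Idgf6 and PGRP-SC1a/b, but the markers differed in this. FASN1, bgm and Lsp2 were higher there, while apolpp was highest in replicate 3 (1.18) and Yp2 in replicate 4 (0.23). In replicate 3 bgm had no value. The part of the fat body in the values of Idgf6 and PGRP-SC1a/b was not tested.

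Of 11 haemocyte markers only the collagen gene Col4a1 was measured, at 0.03 ± 0.16 (SE, n = 4). As to the tissue label, 5 of 14 photoreceptor markers were measured, with Arr1, an arrestin of the eye, at 0.40 ± 0.15, the channel trpl at 0.12 ± 0.15 and the scaffold protein inaD at 0.07 ± 0.14 (SE, n = 4 each), and all 5 between -0.03 and 0.40. The measured markers of other tissues were 1 of 8 for glia (Gs2, glutamine synthetase, 0.46 ± 0.14), 3 of 11 for muscle (Act88F, Mlc2 and TpnC73F, between -0.08 and 0.23) and 1 of 10 for gut (thetaTry, a trypsin, -0.17 ± 0.17, n = 3). No gene was measured of the 8 neuronal and the 10 testis markers, of which the array named 2 and 5. None of the photoreceptor, glial, muscle or gut markers passed.

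**Figure D4:**
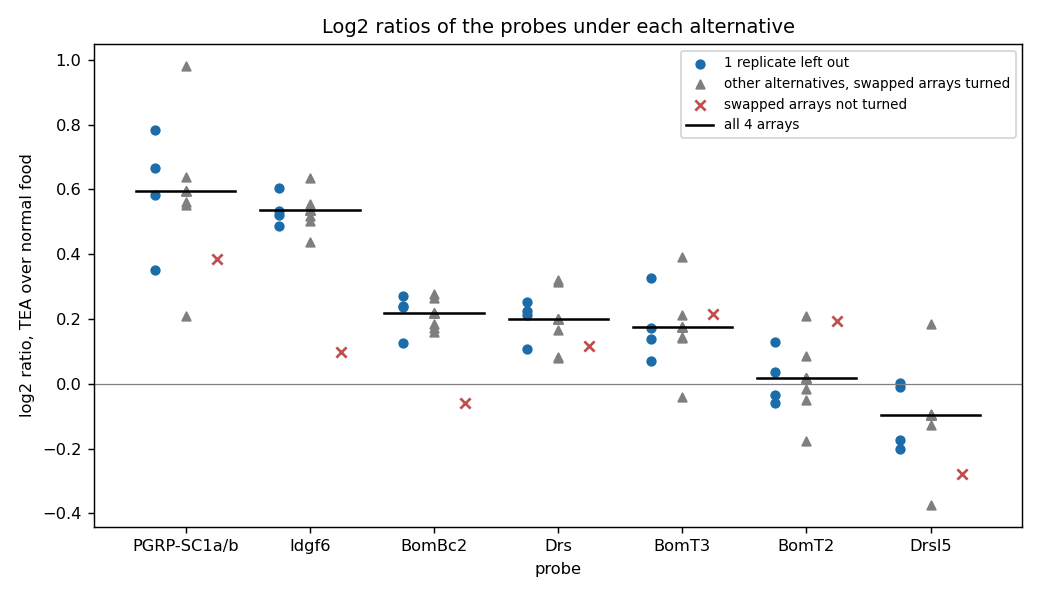
Log2 ratio of TEA over normal food (y axis) for each of the 7 probes (x axis) with all 4 arrays (black line), with 1 replicate left out (circles), under the other alternatives with swapped arrays turned (triangles) and with swapped arrays not turned (crosses). Idgf6 stays between 0.44 and 0.64 except with swapped arrays not turned, at 0.10, while BomT2 and Drsl5 lie on both sides of 0.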

How the data were processed

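The deposited values are log2 ratios of the channels of each array, normalised and filtered by the authors. Per the labels' design text, slides of the D12Kv1 type were quantified with GenePix Pro 6.0 and ratios normalised in Acuity 4.0, and spots that were dim, saturated, flagged or uneven were removed. The scale follows from 8 values at a ceiling of 16.61, the log2 of 100000, which were set to missing. The 4 columns held 6252, 6212, 5913 and 5445 values of 27648 spots. No scanner values were used, so signal over background is not shown. Of the spots, 6245 had at least 3 values.

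Neighbouring spots of 1 probe were averaged, replicates 3 and 4 sign-reversed, and probes with at least 3 values fitted with limma 3.58.1 in R 4.3.3 (intercept only, two-sided, Benjamini-Hochberg over 3150 probes, threshold 0.05). The same fit was run on gene means of 1379 genes. SEs and 95% intervals, which are not adjusted for the number of tests, come from the moderated fit. Its calls, signs and mean error were checked on simulated data with independent noise and no dye effect. That check does not cover the SEs and intervals. Symbols came from the platform annotation, updated by gene identifier to RefSeq Release 6; a build is not given in the sources used here. Named were all members and the 3 measured genes of smallest p in each list. Lsp2, Yp2, CG4716 and CG3823 were added after their values were seen. The members and lists were chosen with earlier results of these data known. Alternatives were centring, a dye term, single spots, other minimum numbers of arrays, unturned arrays, kept ceiling values, gene means, each dye orientation alone and each replicate left out. The drug-withdrawal period was not analysed here.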

Additional observations from a re-analysis of the deposited data

How the results depend on the processing

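No member probe passed under any of the alternatives listed in the processing description (0 in each). The smallest limma adjusted p among member probes was 0.128, for Idgf6 with TEA in Cy5 alone, a fit of replicates 1 and 2 only. In the gene-mean fit with no other change Idgf6 had the smallest, 0.113. At the gene level 1 member, Idgf6, passed with a dye term (limma adjusted p = 0.00122) and 1, again Idgf6, without replicate 3 (0.0419). The number of member genes called was thus 0 to 1 over the replicates left out. That count rests on few members and had little room to vary. The number of all probes called was 20 of 3150 (0.635%) in the fit used. It was 18 with values on all 4 arrays, 20 with values on at least 2 arrays and 17 with ceiling values kept. Median-centred arrays, a dye term, single spots, swapped arrays not turned and TEA in Cy3 alone each gave 0. TEA in Cy5 alone gave 3, and leaving out 1 replicate gave 0 to 4. Among gene means 12 of 1379 (0.87%) were called. At an unadjusted p under 0.05 limma gave 283 of 3150 probes in the fit used. Of the same 3150 it gave 309 with centred arrays, 427 with a dye term and 353 with swapped arrays not turned. The totals differed for single spots (497 of 6245) and for TEA in Cy3 alone (300 of 2471 probes). The median of the members, 0.199 in the fit used, was 0.316 with TEA in Cy5 alone (all probes -0.098), 0.183 with TEA in Cy3 alone (all probes 0.152), 0.117 with swapped arrays not turned (all probes -0.124), and 0.139 to 0.272 with 1 replicate left out. The signs of Idgf6 and Drs did not change in 15 alternatives each, nor that of PGRP-SC1a/b in 14, since it has no gene mean. Most of these could not have changed it. A dye term, other minimum numbers of arrays, kept ceiling values and gene means left the mean as it was. All 4 arrays were above 0, so leaving out arrays could not turn the sign either. Only centring, single spots and unturned arrays could have done so. BomT2 turned to -0.0153 with centred arrays, -0.051 on its second spot, -0.1755 with TEA in Cy3 alone, -0.0582 without replicate 1 and -0.0353 without replicate 2 (-0.0582 to 0.1282 over the replicates left out). BomT3 turned to -0.0395 and Drsl5 to 0.1832 with TEA in Cy3 alone, Drsl5 to 0.0038 without replicate 1 (-0.2015 to 0.0038 over the replicates left out), and BomBc2 to -0.058 with swapped arrays not turned. The cause was not tested. The fit used is already paired, because each array sets 1 TEA pool against its own control, and the groups have no further replicate numbers to pair.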

Other observations

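Idgf6 and BomBc2 each have 2 probes on the array, of which 1 gave values on all 4 arrays and the other none. This was common in the table: of 189 genes with exactly 2 probes and at least 1 measured on every array, 136 (72%) had the other probe empty on every array, and 34 had both measured throughout.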
